A study of Mus musculus with 6 samples.

Results

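The mucin-type glycosyltransferases described here are 76 of the 54532 genes in the deposited count table of mouse distal colon. They are the protein-coding genes whose symbols begin with Galnt, Gcnt, B3gnt, B3galt, B4galt, Fut, St3gal, St6gal or St8sia, together with C1galt1 and C1galt1c1. They carry 75 symbols, since St6galnac2 is listed under 2 identifiers. Poly-A RNA was sequenced from 3 libraries labelled Itgbl1 -/- (KO 1 to KO 3) and 3 libraries labelled WT (WT 1 to WT 3). Itgbl1 encodes an integrin beta-like protein. Mice of both genotypes drank 3% dextran sulfate sodium (DSS, 36 to 50 kDa), a sulfated polysaccharide that injures the colon lining, for 7 days, so all 6 libraries come from colitis and no library comes from an untreated colon. The labels give no strain, age or sex, and do not say how the knockout allele was made. They give a replicate number but not whether each library is a separate animal, so every p-value rests on the spread among these 6 libraries, which may be technical.

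Mucin-type O-glycosylation builds sugar chains on serine and threonine residues in the Golgi. Polypeptide GalNAc-transferases (Galnt genes) attach the first GalNAc. C1galt1 with its chaperone C1galt1c1 adds galactose to make core 1, and B3gnt6 adds GlcNAc instead to make core 3. Gcnt enzymes branch these cores, B3gnt, B3galt and B4galt enzymes lengthen the branches, and fucosyltransferases and sialyltransferases cap them. The mucus gel of the colon depends on these chains, mice without core 1 chains in the gut epithelium are known to develop colitis, and mice without core 3 chains are known to be more sensitive to DSS. Several members also act on N-glycans, glycolipids or proteoglycans, which the symbol rule does not separate.

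Several facts of the libraries touch every value below. The reads assigned to Itgbl1 numbered 12, 4 and 10 in KO 1 to KO 3, and 19, 6 and 5 in WT 1 to WT 3. The gene was near its floor in both groups, and its reads were not lost in the libraries labelled knockout, so directions below are those of the labels. Total counts ranged from 13326970 to 17465473 in the libraries labelled knockout and from 16800399 to 18321389 in the WT libraries. Mitochondrial genes took 3.94%, 4.88% and 12.8% of counts in KO 1 to KO 3, and 3.53% to 4.14% in the WT libraries. The 10 epithelial markers summed to 1149, 7691 and 55.7 CPM (counts scaled to a common library total after TMM) in KO 1 to KO 3, and 15170, 21310 and 16330 CPM in WT 1 to WT 3, so the sum of KO 3 was far below that of every other library. The log2 difference of this sum, knockout label minus WT, was -4.46, and an exact two-sided permutation test gave p = 0.1, the smallest that 3 libraries against 3 allow. The 8 neutrophil markers summed to 1208, 1146 and 6334 CPM in KO 1 to KO 3, against 424, 11.0 and 55.1 CPM in the WT libraries. The 8 fibroblast markers summed to 7032, 4299 and 5287 CPM in KO 1 to KO 3, against 2005, 1526 and 2642 CPM in the WT libraries. The 8 neuron and glia markers summed to 526.9, 264.4 and 949.9 CPM in KO 1 to KO 3, against 148.3, 94.8 and 176.1 CPM in the WT libraries. All 8 were higher at an unadjusted p under 0.05, against 11.8% of all tested genes. The 8 endothelial markers summed to 650, 427 and 1445 CPM in KO 1 to KO 3, against 402, 223 and 373.5 CPM in the WT libraries, with 5 of 8 higher at that level. Other lists did not rise in this way. Log2 ratios were negative for 6 of 8 macrophage and 7 of 8 smooth muscle markers, and T cell markers were split, with 4 negative and 4 positive. For B and plasma cell markers 6 of 8 were positive, 1 of the 8 being higher at an unadjusted p under 0.05. B and plasma cell markers summed to 16470, 4663 and 1622 CPM in KO 1 to KO 3, and 4552, 5876 and 6805 CPM in WT 1 to WT 3. In bulk tissue, fewer cells of a type and less RNA per cell cannot be told apart, and the part of these markers in the values below was not tested.

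As a family, the glycosyltransferases were low in the libraries labelled knockout. They held 0.254%, 0.288% and 0.154% of all counts in KO 1 to KO 3, and 0.554%, 0.695% and 0.642% in WT 1 to WT 3. Summed RPKM (CPM per kilobase of gene length) was 429.7, 647 and 328 in KO 1 to KO 3, and 1322, 1687 and 1456 in WT 1 to WT 3, so the groups did not overlap. A filter on low counts left 66 members for testing among 16861 genes. A gene could pass it through 1 group alone, so the counts below describe the tested members, not all 76. No member and no gene passed an adjusted p of 0.05 in edgeR's quasi-likelihood test with Benjamini-Hochberg adjustment (0% of genes called), and the smallest adjusted p was 0.094. At an unadjusted p under 0.05, 4059 genes were reached, and other settings called members at an adjusted p under 0.05. DESeq2 called 2029 genes (10.5%) and 21 members (30.0%), of which 17 were lower (6.45% of all genes) and 4 higher (4.02% of all genes). Without KO 2, edgeR called 1813 genes (10.4%) and 20 members (29.9%), of which 17 were lower (7.75% of all genes) and 3 higher (2.64% of all genes). With no filter on low counts edgeR called 0.622% of genes and 5 members, B3gnt5, Fut4, Galnt4, Galnt7 and St8sia5. Quality weights in limma-voom called 8.27% of genes and 20 members, and a replicate block 0.0178% of genes and 0 members. Of the 66 tested members, 43 had a negative log2 ratio (65.2%, against 46.9% of all tested genes). At an unadjusted p under 0.05, 22 of the 66 were lower (33.3%, against 12.3% of all tested genes) and 8 were higher (12.1%, against 11.8%). In 27 members every value labelled knockout lay below every WT value (40.9%, against 17.3% of all tested genes), and in 7 every such value lay above (10.6%, against 15% of all tested genes). The median log2 ratio, knockout label over WT, was -0.64 over the tested members and 0.06 over all tested genes.

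**Figure D1:**
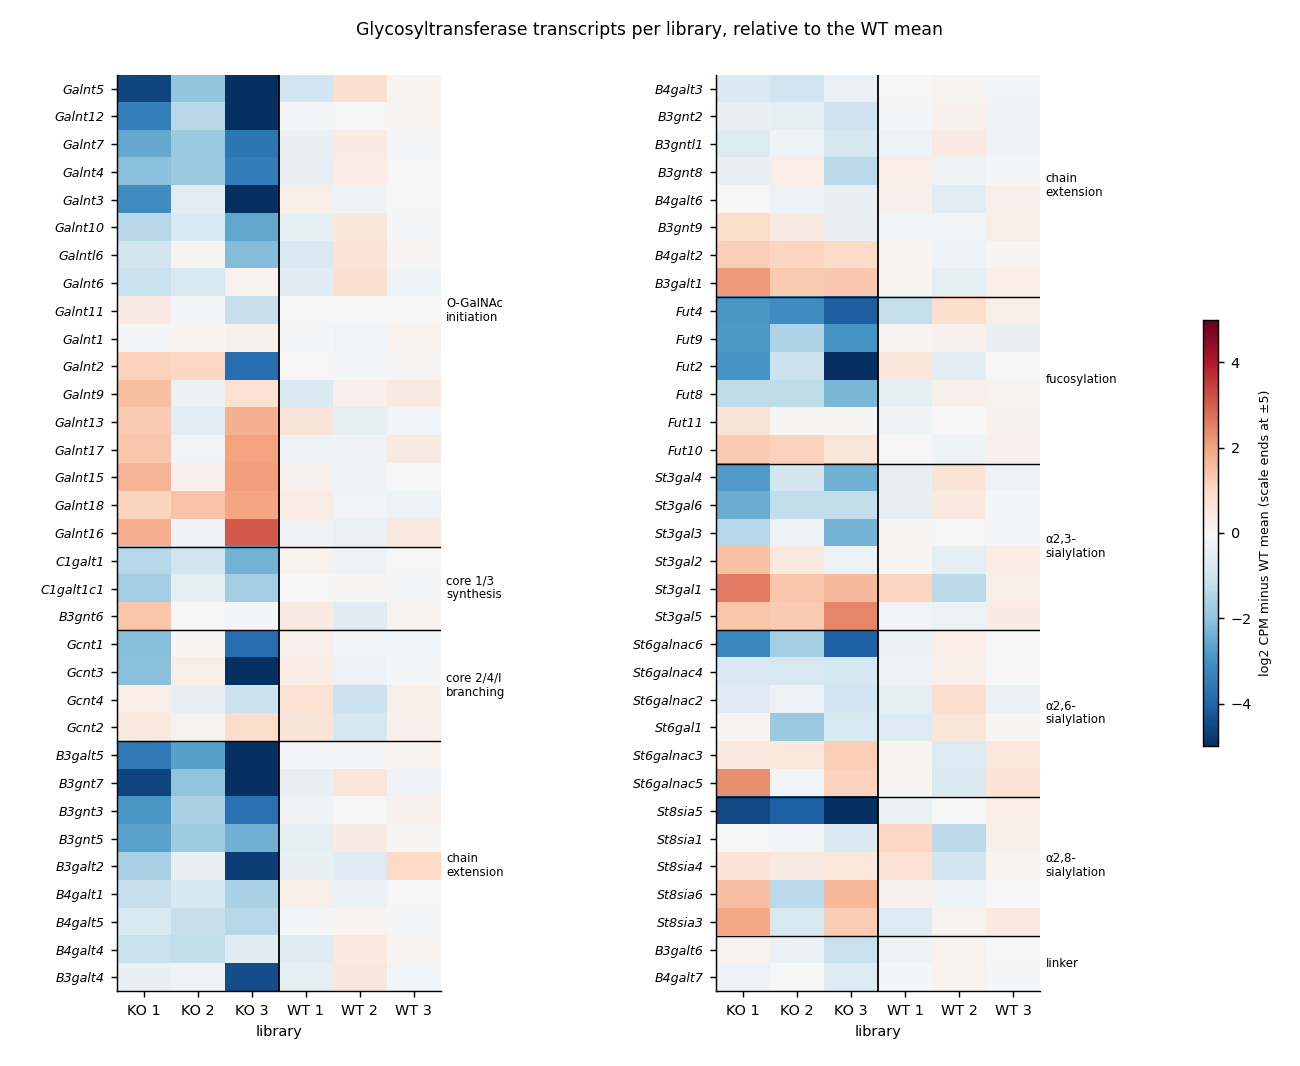
Log2 CPM of the 66 tested members in each library minus the mean of the WT libraries, with members in rows by role and KO 1 to KO 3 left of WT 1 to WT 3. In KO 1, KO 2 and KO 3, 36, 34 and 42 of the members lie below every WT value (54.5%, 51.5% and 63.6%), against 34.4%, 33.8% and 41.3% of all tested genes.

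The libraries labelled knockout were not alike. Of the 27 members without overlap on the low side, KO 2 held the highest of the 3 knockout-labelled values for 20, and KO 3 the lowest for 21. This order is that of the epithelial marker sum, in which KO 2 was the highest of the 3 and KO 3 the lowest. The same counts were not computed over all tested genes on the low side, so this order may not be particular to the members. Of the tested members 10 lay within the WT range in KO 1 (15.2%, against 26.9% of all tested genes), 21 in KO 2 (31.8%, against 33.9%) and 7 in KO 3 (10.6%, against 19.9%). Leaving out 1 library moved the fold of 15 of the 32 named members by more than 1.5 times, and 11 of these moved without KO 2. Without KO 2 the log2 ratio was -3.9 for Fut2, -2.82 for Gcnt1, -3.1 for Gcnt3, -3.68 for St6galnac6 and -2.72 for St3gal4, further below 0 in each than with all libraries. The members highest per length in the WT libraries were B3gnt7, St6galnac6, B3gnt3 and B3galt5, at mean levels of 226.8, 172.7, 155.0 and 149.0 RPKM. These 4 made up 13.9%, 27.5% and 6.77% of the members' summed RPKM in KO 1 to KO 3, and 43.4%, 49.7% and 47.9% in WT 1 to WT 3. In the libraries labelled knockout, B4galt1 was the highest member at a mean of 34.6 RPKM, followed by B3gnt3 at 27.6 RPKM. B3galt5 and B4galt1 were named after their values were seen.

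Promoter windows describe the members outside the counts. RefSeq windows for GRCm38.p6 (250 bases before to 50 after a transcription start) were matched by symbol for 54 of the members, 73 windows in all. The GC box letters GGGCGG stood on either strand in 40 of these 73 windows (54.8%), against 35.7% of 32851 windows of all genes. The letters TATAAA stood in 1 of the 73 (1.37%, against 13.6%), and TTTATG, a core bound by CDX factors, in 6 (8.22%, against 11.9%). Each motif was searched on its own, so matches of different motifs may overlap, and windows of 1 gene can overlap too. A match is a description of the letters and not a binding site. The windows below are those of B3gnt5, which has the smallest p of all members, B3gnt7, the highest member per length in the WT libraries, C1galt1, the core 1 synthase, and St3gal5, which was on the high side; capitals mark GGGCGG or its reverse complement CCGCCC.
B3gnt5 (chr16:19759984-19760283, plus strand): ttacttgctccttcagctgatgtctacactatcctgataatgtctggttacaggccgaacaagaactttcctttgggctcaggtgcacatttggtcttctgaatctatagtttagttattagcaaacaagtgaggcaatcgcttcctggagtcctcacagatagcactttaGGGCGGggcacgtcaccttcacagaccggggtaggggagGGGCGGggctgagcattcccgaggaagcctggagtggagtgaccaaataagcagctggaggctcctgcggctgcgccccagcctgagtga
B3gnt7 (chr1:86302971-86303270, plus strand): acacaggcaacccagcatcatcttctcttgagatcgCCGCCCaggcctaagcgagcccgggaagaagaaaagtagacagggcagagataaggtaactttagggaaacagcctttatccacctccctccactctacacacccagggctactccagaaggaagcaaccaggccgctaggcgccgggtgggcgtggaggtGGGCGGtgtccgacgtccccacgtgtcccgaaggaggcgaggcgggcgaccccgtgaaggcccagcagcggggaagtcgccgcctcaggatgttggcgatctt
C1galt1 (chr6:7844974-7845273, plus strand): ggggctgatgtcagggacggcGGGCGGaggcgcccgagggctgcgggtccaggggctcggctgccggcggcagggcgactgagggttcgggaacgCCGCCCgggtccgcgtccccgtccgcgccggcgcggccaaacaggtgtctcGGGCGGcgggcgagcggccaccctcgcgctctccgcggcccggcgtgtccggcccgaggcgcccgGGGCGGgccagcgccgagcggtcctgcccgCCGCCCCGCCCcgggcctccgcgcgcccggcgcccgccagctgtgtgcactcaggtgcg
St3gal5 (chr6:72097358-72097657, plus strand): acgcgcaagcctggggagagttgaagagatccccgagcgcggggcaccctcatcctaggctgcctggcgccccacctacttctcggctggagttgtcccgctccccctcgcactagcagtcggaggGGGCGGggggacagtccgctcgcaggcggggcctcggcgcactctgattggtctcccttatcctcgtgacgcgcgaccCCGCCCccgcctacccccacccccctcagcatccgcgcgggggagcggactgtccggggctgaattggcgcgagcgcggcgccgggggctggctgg
Members on both sides of the comparison hold the motif, with 2 matches in the window of B3gnt5, which was low, and 2 in that of St3gal5, which was high. Every window printed here holds it, but only 40 of the 73 do. Members on both sides also lack it, such as St6galnac6 and Fut4, which were low. Galnt15, named after its values were seen, was high and has no match either.

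The initiating GalNAc-transferases were split in direction. Of 19 members 17 were tested, with 9 negative and 8 positive log2 ratios (46.9% of all tested genes were negative) and a median of -0.14. At an unadjusted p under 0.05, 5 were lower and 3 higher, against 12.3% and 11.8% of all tested genes. Galnt7 and Galnt4, which prefer peptides that already carry a GalNAc, had the smallest p of those on the low side. Galnt7 (ENSMUSG00000031608, GRCm38 chr8:57523828-57653032) had 19.8, 32.1 and 9.48 CPM in KO 1 to KO 3 and 91.2, 157.8 and 112.9 CPM in WT 1 to WT 3. Galnt4 had 30.2, 35.9 and 11.7 CPM in the libraries labelled knockout, against 97.9, 166.3 and 130.6 CPM in the WT libraries. In both genes the highest knockout-labelled value lay below the lowest WT value. The log2 ratio of Galnt7 was -2.56 ± 0.476 (SE; edgeR adjusted p = 0.094), and that of Galnt4 was -2.34 ± 0.456 (edgeR adjusted p = 0.094).

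Galnt18, a member of the family's Y-type branch, stood the other way. It had 25.2, 31.1 and 45.5 CPM in KO 1 to KO 3 and 15.2, 10.4 and 9.79 CPM in WT 1 to WT 3, a log2 ratio of 1.52 ± 0.331 (edgeR adjusted p = 0.0959), with no overlap. Averaged over all 6 libraries, Galnt6 and Galnt1 were the 2 highest initiating enzymes per length, at 21.1 and 20.1 RPKM. In the WT libraries alone Galnt12, named after its values were seen, and Galnt4 were above Galnt6, at 27.7 and 25.9 RPKM. Galnt6 averaged 16.8 RPKM in the libraries labelled knockout and 25.4 RPKM in the WT libraries, with overlapping groups and a log2 ratio of -0.60 (edgeR adjusted p = 0.478). Galnt1, a broadly expressed initiator, had 101.1, 114.0 and 126.7 CPM in KO 1 to KO 3 and 104.0, 98.9 and 121.8 CPM in WT 1 to WT 3. Its fold was 1.05 with a 95% interval of 0.717 to 1.55, and the sign turned under some alternatives. Galnt2 shares 90% of its exonic bases with a readthrough gene, Gm20388, so its level of 0 to 3.66 CPM is uncertain. Galntl5 had no read in any library, which allows up to 3 reads per library.

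Both parts of the core 1 machinery were low. C1galt1 (ENSMUSG00000042460, GRCm38 chr6:7844842-7875687), the core 1 galactosyltransferase, had 91.9, 126.2 and 48.0 CPM in KO 1 to KO 3 and 278.6, 210.7 and 248.4 CPM in WT 1 to WT 3. Its chaperone C1galt1c1 (Cosmc) had 12.8, 30.6 and 12.8 CPM in the libraries labelled knockout, against 42.8, 44.0 and 40.8 CPM in the WT libraries. Neither gene's groups overlapped. The log2 ratios were -1.47 ± 0.396 for C1galt1 (edgeR adjusted p = 0.111) and -1.18 ± 0.387 for C1galt1c1 (edgeR adjusted p = 0.14). B3gnt6, the core 3 synthase, was low in both groups: 2.37, 0.858 and 0.777 CPM in KO 1 to KO 3, and 1.19, 0.506 and 0.944 CPM in WT 1 to WT 3. Its fold of 1.53 had a 95% interval of 0.524 to 4.44. The log2 ratio of B3gnt6 to C1galt1 reads, with 1 read added to each, averaged -6.06 ± 0.954 in the libraries labelled knockout and -8.1 ± 0.385 in the WT libraries (SD, n = 3 each). This difference of 2.04 had an exact two-sided permutation p of 0.1, or 0.2 adjusted over the 2 ratios tested.

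In the branching enzymes the libraries labelled knockout lay far apart. Gcnt1, a core 2 enzyme, had 21.9, 101.0 and 6.68 CPM in KO 1 to KO 3 and 115.4, 88.8 and 87.8 CPM in WT 1 to WT 3. Gcnt3, which makes core 2, core 4 and I branches, had 23.1, 126.5 and 1.48 CPM in KO 1 to KO 3 and 130.6, 81.5 and 94.4 CPM in WT 1 to WT 3. In both genes KO 2 lay inside the WT range while KO 1 and KO 3 lay below it. Gcnt2, the I-branching enzyme, had overlapping groups at means of 138.9 ± 37.3 CPM in the libraries labelled knockout and 103.0 ± 49.0 CPM in the WT libraries (SD, n = 3 each). None of the 4 tested members of this group reached an unadjusted p under 0.05, and the smallest edgeR adjusted p was 0.432. The log2 ratio of Gcnt3 to Gcnt1 reads averaged -0.57 ± 1.35 in the libraries labelled knockout and 0.05 ± 0.158 in the WT libraries, with an exact permutation p of 0.8, and without KO 3 the difference of -0.63 turned to 0.15.

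Chain extension held the largest share of the family's RNA per length in the WT libraries. Its summed RPKM was 136.4, 223 and 80.5 in KO 1 to KO 3, and 616, 791 and 699 in WT 1 to WT 3. Of 17 tested members 14 had negative log2 ratios (46.9% of all tested genes). At an unadjusted p under 0.05, 7 were lower (12.3% of all tested genes) and 2 higher (11.8%). B3gnt5 (ENSMUSG00000022686, GRCm38 chr16:19760208-19772753), which starts lacto-series glycolipids, had 14.3, 26.6 and 17.3 CPM in KO 1 to KO 3 and 66.0, 121.8 and 96.2 CPM in WT 1 to WT 3. Its log2 ratio was -2.29 ± 0.354 (edgeR adjusted p = 0.094). B3gnt3, which lengthens core 1, had 62.8, 154.3 and 35.4 CPM in the libraries labelled knockout, against 407.0, 473.5 and 540.4 CPM in the WT libraries. Its log2 ratio was -2.49 ± 0.569 (edgeR adjusted p = 0.0983), and the groups did not overlap.

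B3gnt7 (ENSMUSG00000079445, GRCm38 chr1:86302832-86307305), which lengthens keratan sulfate chains, differed most between single libraries among the named members of this group. It had 37.4, 223.6 and 0.155 CPM in KO 1 to KO 3 and 664, 1359 and 791.5 CPM in WT 1 to WT 3. No value overlapped, and the log2 ratio was -3.43 ± 1.7 (edgeR adjusted p = 0.269). It was -5.71 without KO 2 (edgeR adjusted p = 0.0975), -2.84 without KO 3 and -5.91 in limma-voom. B4galt5, a galactosyltransferase that makes lactosylceramide, had 71.9, 55.2 and 46.0 CPM in KO 1 to KO 3 and 117.5, 135.9 and 115.3 CPM in WT 1 to WT 3. Its log2 ratio was -1.09 ± 0.258 (edgeR adjusted p = 0.0999). B4galt2, named after its values were seen, was on the high side, with 24.0, 21.9 and 20.1 CPM in KO 1 to KO 3 and 11.4, 8.86 and 10.8 CPM in WT 1 to WT 3. The proteoglycan linker enzymes B4galt7 and B3galt6 had folds of 0.811 (95% interval 0.511 to 1.29) and 0.792 (0.406 to 1.54), and their groups overlapped.

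**Figure D2:**
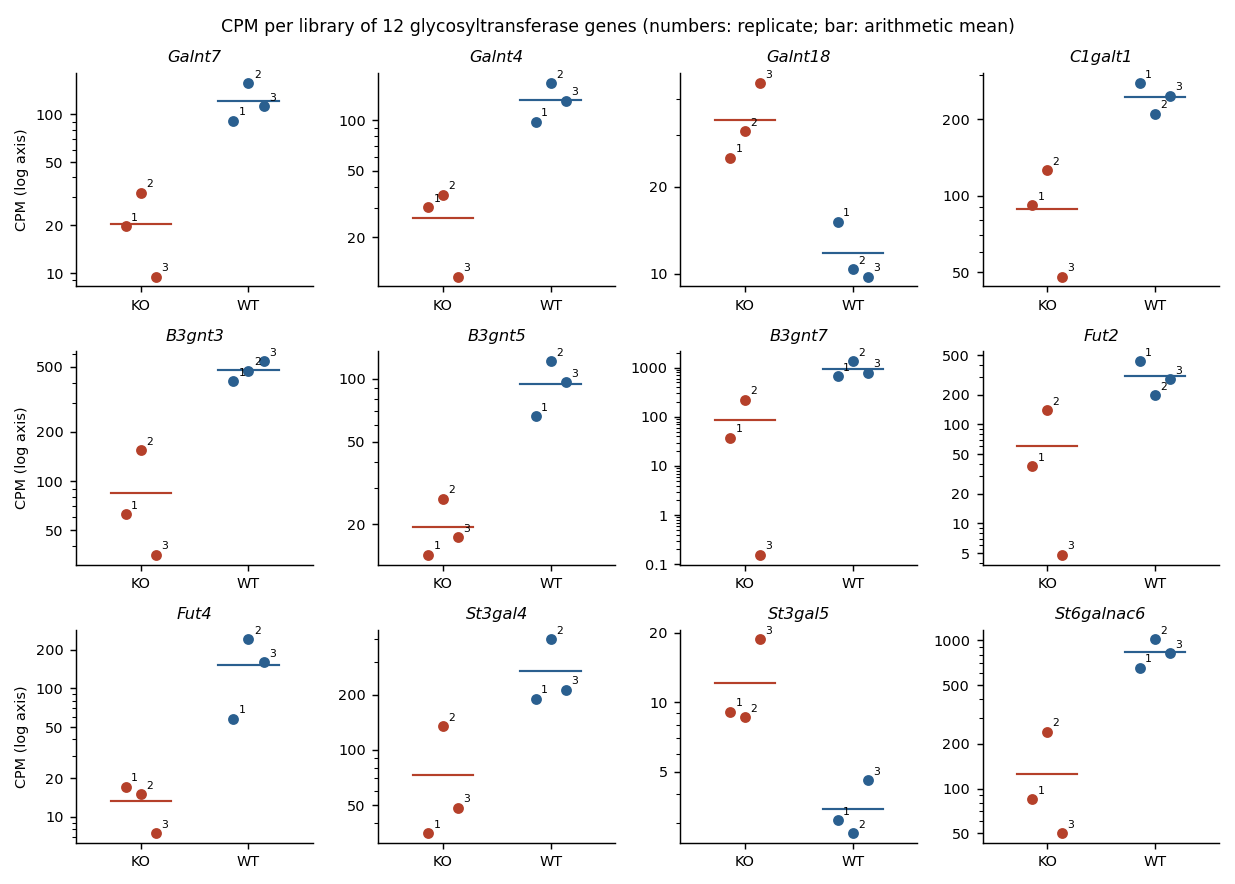
CPM on a log axis of 12 named members in each library, KO 1 to KO 3 at the left and WT 1 to WT 3 at the right of each panel. Galnt18 and St3gal5 are the panels in which the libraries labelled knockout lie above the WT libraries; in the other 10 they lie below. These 12 were picked for display and have groups that do not overlap, while the groups of 32 of the 66 tested members overlap.

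Fucosylation had the lowest median log2 ratio of the 9 roles, at -1.96. Of its 6 tested members 3 were lower and 1 higher at an unadjusted p under 0.05, against 12.3% and 11.8% of all tested genes. Fut4 (ENSMUSG00000049307, GRCm38 chr9:14748320-14752393), which makes Lewis x on many cell types, had 17.1, 15.0 and 7.46 CPM in KO 1 to KO 3 and 57.9, 241.4 and 160.7 CPM in WT 1 to WT 3, a log2 ratio of -3.54 ± 0.596 (edgeR adjusted p = 0.094). Fut8, the core fucosyltransferase of N-glycans, had 47.9, 47.4 and 23.5 CPM in the libraries labelled knockout, against 85.2, 139.2 and 129.6 CPM in the WT libraries, and the groups did not overlap. Its log2 ratio was -1.57 ± 0.361 (edgeR adjusted p = 0.0983). Fut9, also a Lewis x enzyme, was low in both groups, with 0.247, 0.801 and 0.233 CPM in KO 1 to KO 3 and 2.85, 3.04 and 2.01 CPM in WT 1 to WT 3. Fut2, which makes the H antigen on gut epithelium, was the highest of the group per length in the WT libraries. It had 38.1, 138.9 and 4.82 CPM in KO 1 to KO 3 and 436.8, 198.7 and 285.2 CPM in WT 1 to WT 3, and its log2 ratio of -2.34 ± 1.03 had an edgeR adjusted p of 0.223. Fut1, its neighbour on chromosome 7, had 60 reads over all libraries and was not tested.

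Among the 6 alpha-2,3 sialyltransferases 3 were negative (46.9% of all tested genes) and 3 positive. At an unadjusted p under 0.05, 2 were lower and 2 higher, against 12.3% and 11.8% of all tested genes. St3gal4, which caps galactose on O- and N-glycans, had 35.2, 134.6 and 48.4 CPM in KO 1 to KO 3 and 190.3, 399.9 and 213.0 CPM in WT 1 to WT 3. St3gal6 had 20.01, 48.4 and 47.7 CPM in the libraries labelled knockout, against 84.9, 157.3 and 107.6 CPM in the WT libraries; 26.0% of its exonic bases are shared with Dcbld2. Their log2 ratios were -1.88 ± 0.584 (edgeR adjusted p = 0.132) and -1.59 ± 0.416 (edgeR adjusted p = 0.108). St3gal5 (ENSMUSG00000056091, GRCm38 chr6:72097592-72154571), the GM3 ganglioside synthase, stood the other way, with 9.09, 8.64 and 18.7 CPM in KO 1 to KO 3 and 3.09, 2.72 and 4.6 CPM in WT 1 to WT 3. Its log2 ratio was 1.8 ± 0.453 (edgeR adjusted p = 0.104). St3gal3 lay below the WT values in every library labelled knockout, at a log2 ratio of -1.13 (edgeR adjusted p = 0.216).

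St6galnac6 (ENSMUSG00000026811, GRCm38 chr2:32599709-32620806), an alpha-2,6 enzyme of gangliosides and Lewis-type chains, was the second highest member per length in the WT libraries. It had 84.4, 242.7 and 50.1 CPM in KO 1 to KO 3 and 653, 1018 and 823 CPM in WT 1 to WT 3, a log2 ratio of -2.73 ± 0.642 (edgeR adjusted p = 0.0999). St6galnac4 lies 10 bases from it on chromosome 2, on the same strand, so reads at the boundary could be assigned to either. It had 24.0, 22.8 and 21.9 CPM in the libraries labelled knockout, against 33.9, 48.2 and 40.2 CPM in the WT libraries. St6galnac1, known as a sialyl-Tn enzyme, had no read in any library. St6gal1, which acts on N-glycans, and St6galnac5 had overlapping groups.

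St8sia5 (ENSMUSG00000025425, GRCm38 chr18:77185853-77255450), an alpha-2,8 enzyme of gangliosides, had the most negative log2 ratio of the tested members in edgeR with all libraries. In limma-voom B3gnt7 was below it, and without KO 2 Galnt5 and B3gnt7 were. St8sia5 had 0.692, 0.972 and 0 CPM in KO 1 to KO 3 and 14.6, 18.4 and 23.2 CPM in WT 1 to WT 3, a log2 ratio of -5.01 ± 0.894 (edgeR adjusted p = 0.094). St8sia6 and St8sia3 had positive log2 ratios of 1.09 and 1.15 with overlapping groups, at edgeR adjusted p values of 0.383 and 0.384. In both genes KO 2 lay below every WT value, and KO 1 and KO 3 lay above.

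**Figure D3:**
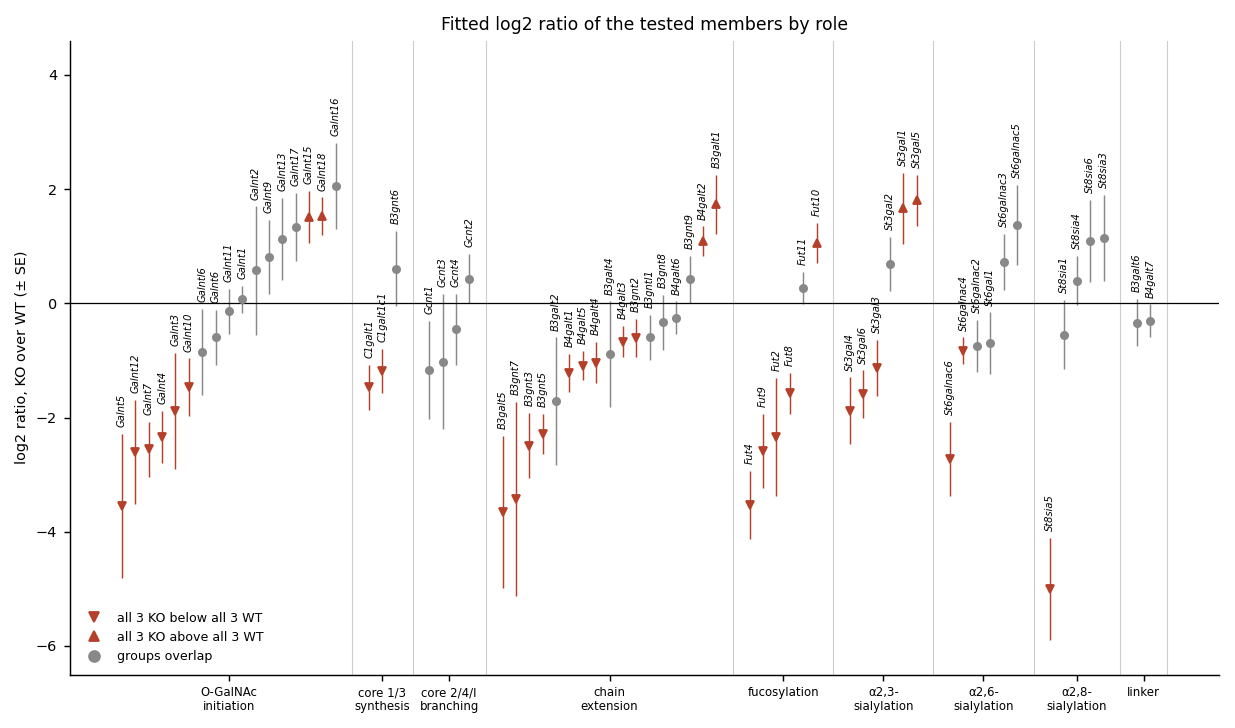
Log2 ratio, knockout label over WT, of the 66 tested members by role, with bars of 1 SE; triangles mark members whose groups did not overlap. The ratios run from -5.01 (St8sia5) to 2.06.

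Genes that supply the sugar donors were mostly negative too. Of 19 tested genes for nucleotide sugar synthesis and transport, 18 had negative log2 ratios, against 46.9% of all tested genes. At an unadjusted p under 0.05, 15 were lower (12.3% of all tested genes) and 1 higher (11.8%). The median was -1.89. Slc35a3, the Golgi UDP-GlcNAc transporter, had 40.4, 48.3 and 45.1 CPM in KO 1 to KO 3 and 138.9, 288.8 and 193.7 CPM in WT 1 to WT 3. Gne, the first enzyme of sialic acid synthesis, had 36.1, 75.4 and 17.1 CPM in the libraries labelled knockout, against 194.0, 574.8 and 344.9 CPM in the WT libraries. The UDP-galactose transporter Slc35a2 had a log2 ratio of -2.13, and all 3 genes had an edgeR adjusted p of 0.094. Other glycan-modifying enzymes were split, with 10 of 20 tested genes negative (46.9% of all tested genes) and a median of -0.46. At an unadjusted p under 0.05, 5 were lower (12.3% of all tested genes) and 1 higher (11.8%). Gal3st2c, a sulfotransferase gene with near-identical copies whose reads could be split, had the most negative ratio of those named, at -4.92, and B4galnt3 had -3.47. B4galnt2, which makes the Sda antigen of the gut, had values of 3.71, 13.6 and 0.389 CPM in KO 1 to KO 3 and 58.0, 109.2 and 88.3 CPM in WT 1 to WT 3. All 6 tested mucins were negative, 1 of them at an unadjusted p under 0.05 (46.9% and 12.3% of all tested genes), with a median of -2.1. Muc3 and Muc3a, which may share reads, had log2 ratios of -3.71 and -2.58, and Muc13, a transmembrane mucin, had 270.7, 1258 and 7.46 CPM in KO 1 to KO 3 and 4640, 3085 and 4037 CPM in WT 1 to WT 3.

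**Figure D4:**
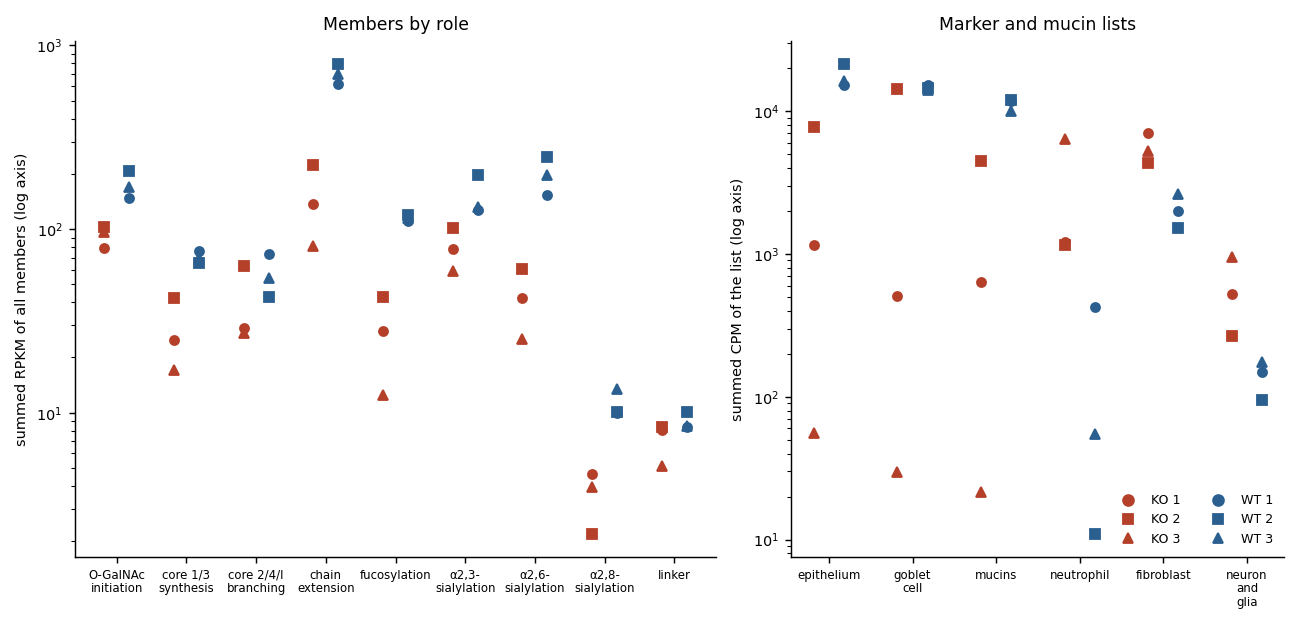
Left, summed RPKM of the members by role in each library, with KO 1 to KO 3 left of WT 1 to WT 3. Right, summed CPM of the epithelium, goblet cell, mucin, neutrophil, fibroblast, and neuron and glia lists, in the same order of libraries. The other marker lists are not shown. The epithelial sum is 55.7 to 7691 CPM in the libraries labelled knockout and 15170 to 21310 CPM in the WT libraries.

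The members were also set against the epithelial markers, a comparison added after the data were seen. Each member's CPM was divided by the summed CPM of the 10 epithelial markers. B3gnt7 then had 32.5, 29.1 and 2.79 per 1000 epithelial CPM in KO 1 to KO 3, against 43.8, 63.8 and 48.5 in WT 1 to WT 3, so its groups still did not overlap. No other marker list was used as a divisor, so this separation is shown for the epithelial list alone and may not hold with another. Galnt5, named after its values were seen, and St8sia5 also lay below every WT value by this measure, but both had 0 reads in KO 3. At the 3 reads that a count of 0 allows, each would reach 4.18 per 1000 epithelial CPM in KO 3, above the WT values of 0.544 to 1.33 for Galnt5 and 0.864 to 1.42 for St8sia5, so their direction on this scale could not be read at this depth. With zeros as counted, 3 of the 27 members without overlap on the low side stayed there, against 2.71% of the 2918 tested genes that were on the low side in CPM. With a count of 0 set to 3 reads, 1 of the 27 stayed (3.7%), against 0.788% of those genes. Over all 66 tested members, 3 lay below every WT value with zeros as counted, against 0.469% of all tested genes. Of the 27 members, with zeros as counted, 18 overlapped and 6 lay above every WT value. Of the 2918 tested genes on the low side in CPM, 49.6% overlapped and 47.7% lay above every WT value. On this scale 36 of the 66 tested members lay above every WT value, a smaller share than the 81.1% of all tested genes. The divisor itself was low in the libraries labelled knockout. Goblet cell markers summed to 506.5, 14220 and 29.8 CPM in KO 1 to KO 3 and 15300, 14470 and 14040 CPM in WT 1 to WT 3, so KO 2 lay within the WT range in this sum. Colonocyte markers summed to 309.9, 1739 and 172.8 CPM in KO 1 to KO 3 and 5631, 5910 and 3978 CPM in WT 1 to WT 3, and KO 2 lay below the WT range in that sum. The part of either cell type in the members' values was not tested.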

How the data were processed

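Poly-A RNA of mouse distal colon was sequenced in 6 libraries, with inserts of about 370 to 420 bp and 1 date for all, per the labels. The deposited values are whole-number counts per gene, made by the authors after trimming adaptors and dropping reads with N stretches or poor quality, per the labels' protocols. The submitters' processing notes name, without roles, DESeq2, featureCounts 1.5.0-p3, HISAT2 2.0.5 and StringTie 1.3.3b, and as builds mm10 and GRCm38. No source used here gives the annotation release, the strand setting or the handling of shared reads, and reads of overlapping genes could go to either gene. Of the listed genes, 54495 identifiers were found in GENCODE M21, and 72 of the 76 members had the same coordinates there. More than 50% of exonic bases are shared with other genes in 3 members (Galnt2, B3gnt2 and B3gnt4). Other deposited columns gave gene lengths, from which RPKM was computed here.

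Groups came from the labelled genotype. Counts were tested in R 4.3.3 with edgeR 4.0.16 (filterByExpr, minimum count 10, minimum total 15; TMM; robust quasi-likelihood F test, no covariate; Benjamini-Hochberg over all 16861 genes; threshold 0.05). Log2 CPM used a prior count of 2. Single ratios used exact two-sided permutation tests. The steps were tested on simulated counts with the same set spread for every gene and library. That simulation held no differences like those among the libraries labelled knockout, so it does not show what can be detected here. Alternatives were other scalings and filters, a replicate block, DESeq2 1.42.0, limma-voom (limma 3.58.1) with and without quality weights, protein-coding genes alone, and each library left out. Depths of 13326970 to 18321389 counts limit precision for members with few reads, and intervals and the limit for a count of 0 cover counting error or the spread between libraries alone. Within each group, counts of library pairs differed by more than sampling noise (chi-square per degree of freedom 50.7 to 253), and all 6 were kept as separate libraries.

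The members, roles and lists were chosen with earlier results of these data known. Within each role the text names up to 2 members highest per length and up to 3 with the smallest p, and from each pathway list up to 3 with the smallest p. Others are said to be named after their values were seen. Not tested for low counts were Galnt14, Galntl5, St6gal2, St6galnac1, the second St6galnac2 entry, St8sia2, B3gnt4, Gcnt7, Fut1 and Fut7.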

Additional observations from a re-analysis of the deposited data

How the results depend on the processing

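Genes called at an adjusted p under 0.05 numbered 192 with no filter, 3 with the replicate block, 2029 with DESeq2 and 1395 with limma-voom with quality weights, and ranged from 0 to 1813 with 1 library left out (1813 without KO 2). Members called numbered 5 with no filter (B3gnt5, Fut4, Galnt4, Galnt7 and St8sia5; 0.622% of all genes), 21 with DESeq2, 20 with quality weights (8.27% of all genes), and 0 to 20 with 1 library left out. The 2 scalings, plain limma-voom, the stricter filter and protein-coding genes alone gave 0 calls. Members lower at an unadjusted p under 0.05 ranged from 16 to 26 and members higher from 6 to 13 with 1 library left out; without KO 2, 13 were higher. Their median log2 ratio then ranged from -0.77 to -0.45. Members without overlap ranged from 27 to 36 on the low side and from 7 to 14 on the high side with 1 library left out. Fewer libraries make separation easier for every gene. With 1 library left out, the share of all tested genes was computed neither for separation nor for an unadjusted p under 0.05. Members without overlap on the low and high side numbered 23 and 6 of 56 tested with 10 reads in every library, and 26 and 6 of 66 with RLE scaling. The share of all tested genes was not computed for these settings either. Divided by the epithelial sum, a scale chosen after seeing the data, 3 of 66 members were low and 36 high without overlap. The shares of all tested genes on that scale were 0.469% and 81.1%. With a count of 0 set to the 3 reads it allows, the member counts were 1 and 37. The epithelial sum's difference ranged from -6.15 to -2.57, the B3gnt6 to C1galt1 difference from 1.63 to 2.57 and the Gcnt3 to Gcnt1 difference from -1.08 to 0.147. The log2 ratio of Galnt1 turned to -0.082 with quality weights and ranged from -0.028 to 0.16 with 1 library left out, below 0 without KO 3 and without WT 2 (-0.015), and that of B3gnt6 ranged from -0.095 without KO 1 to 0.84; the cause was not tested. Upper-quartile scaling moved the median of all genes to 0.206. Of 476 alternative values of 32 named members, 422 kept direction and side of the threshold, 50 passed it and 4 reversed.

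Replicate numbers are shared by the groups. Deviations of same-numbered libraries correlated at -0.201, 0.0866 and -0.0753, and those of differently numbered libraries at -0.171 to 0.34. These correlations cannot decide whether the numbers pair the libraries, since the wide spread among the libraries labelled knockout could hide it. With the replicate block, 0 members were called, 24 were lower and 7 higher at an unadjusted p under 0.05. The share of all tested genes at that unadjusted level was not computed with the block.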
